A study of Saccharomyces cerevisiae with 236 samples.

Results

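A cationic quinolone known by its library code (PCID 16001701) was profiled in pools of barcoded Saccharomyces cerevisiae deletion strains from 3 collections. The 12 quinolone arrays and the 24 arrays of the same collections in YPD with DMSO, taken by their labels, were 36 of the 236 arrays of the series. Every deletion strain on the array was included, 5179 in all, and each collection was compared on its own. The question was which gene deletions were depleted by the compound, and whether strains of different genetic background gave the same answer.

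The YKO collection was made of homozygous diploid deletions in BY4743, of mating type MATa/α, which is homozygous for his3Δ1, leu2Δ0 and ura3Δ0 and heterozygous for lys2Δ0 and met17Δ0. It is auxotrophic and was supplied with its nutrients by rich medium. The PB collection was made of MATa haploid deletions in BY4741, with the alleles his3Δ1, leu2Δ0, met17Δ0 and ura3Δ0. Each PB strain was made prototrophic by pHLUM, an ARS-CEN plasmid that carries HIS3, LEU2, URA3 and MET17. The BC collection was made of MATa haploid deletions that had been backcrossed and selected as prototrophs on minimal medium, with the alleles can1Δ::STE2pr-SpHIS5, his3Δ1 and lyp1Δ0.

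Quinolone cultures received 125 µM of the compound in YPD, with 3 arrays for YKO, 3 for PB and 6 for BC by their labels. The sample table of the study gives every collection the same number of quinolone arrays, so that table and the labels, followed here, differ in the count per collection. Whether this bears on the pool of any array was not tested. Control cultures received the vehicle at 2% DMSO in YPD, with 9 arrays for YKO, 8 for PB and 7 for BC. All cultures were grown for 5 generations, and the methods call replicate cultures independent. The methods also describe duplicate wells on a shared plate, and the labels do not say whether any arrays came from such wells. The dose was chosen on wild-type cells. The chemical structure of the compound is not described here.

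Each deletion is marked by up to 2 short DNA barcodes, an uptag and a downtag, and the intensity of a tag on the array follows the abundance of its strain in the pool. The fitness defect (FD) score of a tag is its median log2 intensity in YPD with DMSO minus its log2 intensity in the quinolone, so a positive score means less of the strain in the quinolone. The median over quinolone arrays is given with the SD and n. A tag was counted as present where it lay above background in every YPD and YPD with DMSO array of its collection, at a log2 intensity over 7.16 (YKO), 7.73 (PB) or 7.37 (BC). Presence was read in control arrays alone, so a strain found in the quinolone but not in controls was not tested. Of 5179 strains, 3929 were tested in YKO, 4015 in PB and 3837 in BC.

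De novo purine synthesis builds IMP from phosphoribosyl pyrophosphate in a chain of steps encoded by the ADE genes of yeast, and IMP is then converted to AMP and GMP. Folate-bound one-carbon units, supplied in the cytosol largely by the SHM2 and ADE3 products, are used in this chain. The transcription factors Bas1 and Pho2 act together to switch the ADE genes on when adenine is short. Cells can also take up adenine and salvage it, so ade deletions grow in rich medium.

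Some arrays held tags that their pool should lack. Tags above background in the starting pool of YKO alone (999 tags), or of PB alone, served to show this. Over 10% of such tags of another collection were above background on quinolone array 2 of PB (17.5% of the YKO tags). The same was true of quinolone arrays 2, 3 and 4 of BC, with 18.4%, 10.2% and 22.4% of the YKO tags and 38.5%, 14.5% and 53.8% of the PB tags. Array 9 of YKO in YPD with DMSO held 46.2% of the PB tags, and array 7 of BC in YPD with DMSO held 69.2%. No quinolone array of YKO was among them. Results are given with and without these arrays, an alternative added once the data were known. The 34 tags found in the starting pool of BC alone were held too few for this rule and were not used. Over 10% of them were above background on some arrays that were kept. In YPD with DMSO these included array 1 of YKO (11.8%) and array 1 of PB (17.6%). Among all arrays in rich media (YPD or YPG) that entered the fits, 7 of 31 were left out for YKO, 3 of 34 for PB and 12 of 36 for BC, which left 3, 2 and 3 quinolone arrays.

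**Figure D1:**
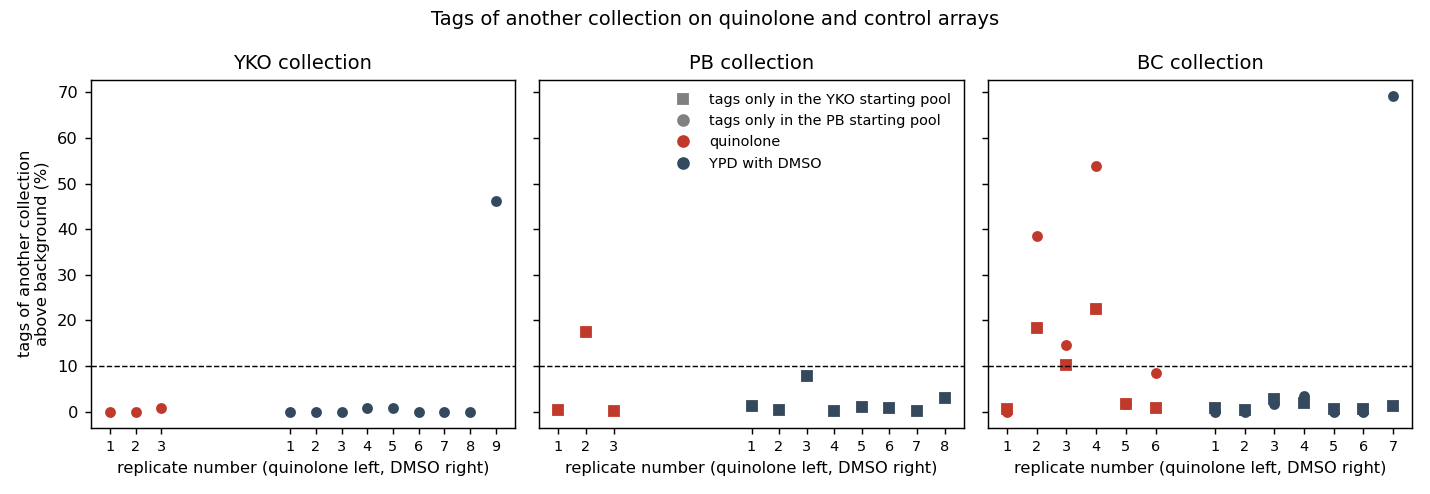
Each point is 1 array, with its replicate number on the x axis and, on the y axis, the percent of tags found only in the starting pool of another collection (squares, YKO tags; circles, PB tags) that were above background on it. Quinolone arrays 2, 3 and 4 of BC and 2 of PB lie above the dashed line at 10%, as do array 9 of YKO and array 7 of BC in YPD with DMSO.

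Few strains responded. A strain was called where its FD score reached 1 and its limma p stayed under 0.05 after Benjamini-Hochberg adjustment over all tested strains of the collection. In YKO 6 of 3929 strains were called as lower in the quinolone (0.153%), and these were deletions of ADE4, ADE6, THI3, SHM2, PRO2 and BAS1. In PB 1 of 4015 was called (0.0249%), THI3. In BC 2 of 3837 were called (0.0521%), THI3 and SHM2. No strain was called as higher in any of the 3 collections (0.0%) by limma, where 98 YKO, 291 PB and 349 BC strains had an unadjusted p under 0.05 in either direction.

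Scores of most strains lay near 0. The median FD score over all strains was 0.02 in YKO, -0.04 in PB and 0.02 in BC, and its SD over strains was 0.23, 0.22 and 0.23. Scores of at least 1 were reached by 9, 3 and 2 strains, calls included. Scores of single quinolone arrays of 1 collection correlated at -0.07 to 0.55 across strains, which are not independent replicates. The uptag and downtag scores of strains with both tags present correlated at 0.40 in YKO (2190 strains), 0.23 in PB (1973) and 0.52 in BC (2171).

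**Figure D2:**
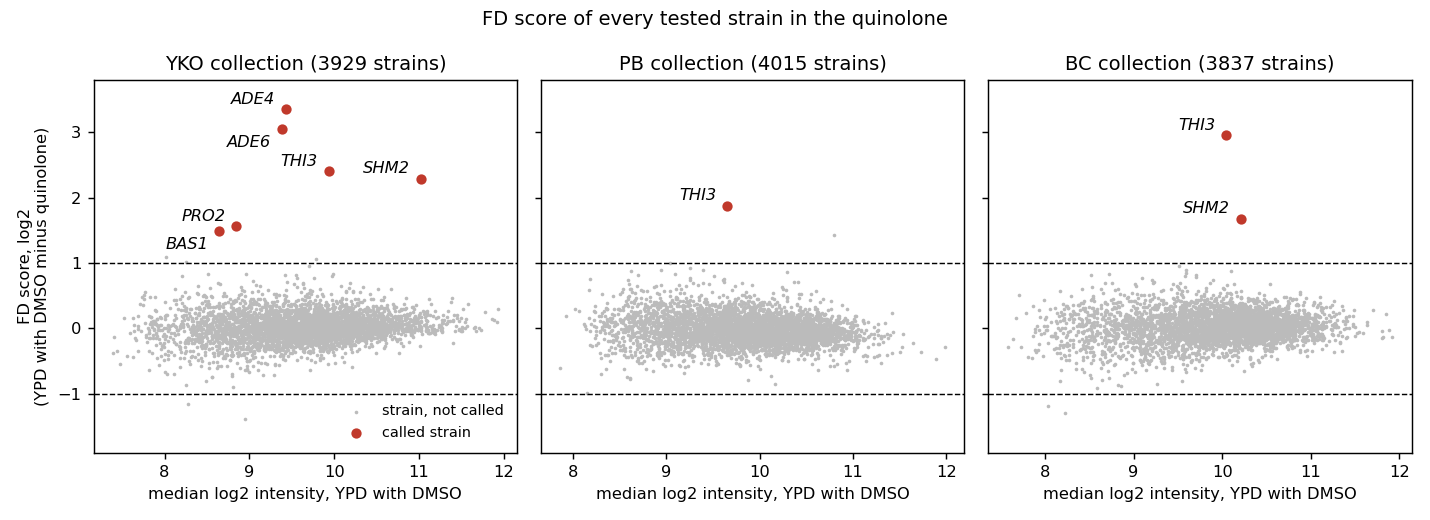
Each point is 1 tested strain, with its median log2 intensity in YPD with DMSO on the x axis and its median FD score in the quinolone (log2) on the y axis. Called strains are red and named. The 6 called YKO strains lie between 1.49 and 3.35, while 1 strain stands out as called in PB (THI3, 1.88) and 2 in BC (THI3, 2.95, and SHM2, 1.68).

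The deletion of ADE4, which encodes the amidotransferase of the first committed step of purine synthesis, had the highest score in YKO. Its downtag had a log2 intensity of 6.08, 7.11 and 5.55 on the quinolone arrays, against a lowest of 8.28, a median of 9.43 and a highest of 9.81 in YPD with DMSO. The groups did not overlap, and all 3 quinolone values were below the presence threshold. The FD score was 3.35 ± 0.79 (SD, n = 3; limma adjusted p = 3.49e-09). The ADE4 uptag ran between 4.91 and 5.40 in the quinolone, against 4.58, 7.62 and 7.97 (lowest, median, highest) in YPD with DMSO, where control array 1 was itself at background.

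The deletion of ADE6, which lacks formylglycinamidine-ribonucleotide synthetase, followed. Its downtag lay at 6.23, 6.82 and 6.33 in the quinolone, against 8.29, 9.38 and 9.48 (lowest, median, highest) in YPD with DMSO. Its FD score was 3.05 ± 0.32 (SD, n = 3; limma adjusted p = 3.00e-06). The second tag separated as well, at 5.29, 5.00 and 5.22 in the quinolone, against 7.61, 7.86 and 8.50 in YPD with DMSO, with an FD score of 2.64.

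Most other purine strains stood close to background in some control array and were untested under the presence rule. Of the 11 listed de novo purine genes, 10 were on the array (ADE13, adenylosuccinate lyase, was not among the tags analysed here). Of these, 5 were tested in YKO, 3 in PB and 4 in BC, and 2, 0 and 0 were called. The median FD score of the tested members was 0.56 in YKO, 0.37 in PB and 0.09 in BC, against 0.02, -0.04 and 0.02 over all strains. When presence was read from the mean of the controls, 8 YKO members were tested with 4 called, 6 PB members with 1 called and 5 BC members with 0 called. Over all strains this reading called 9 of 4466 in YKO (0.202%), 2 of 4431 in PB (0.0451%) and 2 of 4181 in BC (0.0478%). With presence by the mean and the arrays with other tags left out, 5 of 9 members were called in YKO, 0 of 6 in PB and 0 of 5 in BC, against 0.268%, 0.0226% and 0.0722% of all strains.

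The ADE3 deletion, which lacks the cytosolic C1-tetrahydrofolate synthase, was among the strains that entered by the mean of the controls in YKO. Its downtag had 5.61, 5.13 and 5.96 in the quinolone, against 7.73, 8.10 and 8.43 (lowest, median, highest) in YPD with DMSO. The groups did not overlap, and the FD score was 2.48 ± 0.42 (SD, n = 3; limma adjusted p = 2.90e-06). Without the arrays that held other tags it was 2.54 under the stricter presence rule too (adjusted p = 1.89e-10).

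ADE1 encodes SAICAR synthetase, and its deletion has 1 tag on the array. In YKO the tag lay at 5.49, 5.02 and 5.00 in the quinolone, against 6.72, 7.57 and 7.86 in YPD with DMSO. The FD score was 2.55 ± 0.28 (SD, n = 3; limma adjusted p = 3.75e-05, presence by the mean). In PB the tag gave 5.83, 7.57 and 5.16 in the quinolone, against 6.25, 7.07 and 8.22 in YPD with DMSO, below the presence threshold in most arrays of both groups. The high value of 7.57 was on quinolone array 2, the PB quinolone array that held YKO tags, and its part in the overlap was not tested.

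The deletion of ADE8, the glycinamide ribonucleotide transformylase, was dim in every pool. Its YKO uptag had 5.43, 4.82 and 4.89 in the quinolone, against 5.97, 6.99 and 7.31 in YPD with DMSO. It was tested only with both changes to the setting, where the FD score was 2.13 ± 0.33 (SD, n = 3; limma adjusted p = 8.75e-06). In BC the ADE8 downtag overlapped between groups, at 6.55 to 7.82 in the quinolone, against 7.21 to 8.74 in YPD with DMSO, and its FD score was 0.51 ± 0.50 (SD, n = 6; adjusted p = 0.425, presence by the mean).

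ADE5,7 encodes the enzyme that makes glycinamide ribonucleotide and, at a later step, aminoimidazole ribonucleotide. Of 2 deletion strains on the array, 1 gave a tag above background. In YKO it lay at 5.44, 4.78 and 4.84 in the quinolone, against 5.03, 7.48 and 8.56 in YPD with DMSO, with 2 of 9 control arrays as low as the quinolone arrays. In PB it lay at 7.68, 5.21 and 4.99 in the quinolone, against 4.98, 8.91 and 9.60 in YPD with DMSO. The FD scores of 2.64 in YKO and 3.70 in PB were not called (limma adjusted p = 0.210 and 0.663, presence by the mean).

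In PB the purine strain furthest apart was that of ADE2, which encodes phosphoribosylaminoimidazole carboxylase. Its downtag had 6.07, 5.41 and 6.52 in the quinolone, against 6.82, 10.13 and 10.42 (lowest, median, highest) in YPD with DMSO. No quinolone array reached the controls, but control array 1 lay far below the other control arrays. The FD score was 4.07 ± 0.56 (SD, n = 3), called by the mean of the controls (limma adjusted p = 0.0472) and lost when the 3 PB arrays that held YKO tags, quinolone array 2 among them, were left out (3.84, adjusted p = 0.339). In YKO and BC neither ADE2 tag was above background by the mean of the controls. Its downtag was above the threshold at 9.30 on YKO control array 9, and in BC at 9.54 and 7.91 on quinolone arrays 4 and 2 and at 9.94 on control array 7, all of which held tags of another collection.

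Other PB purine tags also lay low in the quinolone. The ADE4 downtag had 5.98, 5.36 and 6.19 in the quinolone, against 7.17, 7.66 and 8.75 in YPD with DMSO. These groups did not overlap, and the FD score of 1.68 was not called (limma adjusted p = 0.0804, presence by the mean). The ADE3 downtag had 5.98, 5.68 and 5.54 in the quinolone, against 6.83, 7.28 and 7.56 in YPD with DMSO, so every array of both groups was below the threshold for presence. The ADE6 downtag, also short of presence by the mean, had 5.99, 5.34 and 5.66 in the quinolone, against 5.29, 7.73 and 8.47 in YPD with DMSO.

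ADE12 encodes adenylosuccinate synthase, on the branch that leads to AMP. The 2 tags of its PB strain differed. The downtag lay at 7.20, 7.48 and 7.07 in the quinolone, against 7.74, 9.66 and 10.35 in YPD with DMSO, a score of 2.46 with no overlap. The uptag, the steadier of the pair in controls and the one tested, lay at 10.41, 9.70 and 9.40 in the quinolone, against 9.83, 10.41 and 10.84 in YPD with DMSO, a score of 0.72 (limma adjusted p = 0.659). With the mean of both tags the strain was called in PB (1.30, adjusted p = 0.0152). The ADE12 scores of YKO (0.56) and BC (0.11) were not called.

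ADE16 and ADE17 encode isozymes of AICAR transformylase and IMP cyclohydrolase, so either deletion leaves the other enzyme in place. ADE16 scored -0.08 in YKO, 0.08 in PB and 0.07 in BC. ADE17 scored 0.31 in YKO, 0.37 in PB and 0.71 in BC (limma adjusted p = 1.000, 0.741 and 0.360). Without the arrays that held other tags the BC score, then read from the uptag, was 0.88 and was not called (adjusted p = 0.0750). In the adenine dropout described next the ADE17 tags scored 1.67 in YKO, 0.56 in PB and 1.11 in BC.

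With all arrays, no purine synthesis tag above background in BC lay below every control. Without the arrays that held other tags the ADE17 uptag did so narrowly, at up to 9.53 in the quinolone against a lowest control of 9.55, without a call. The ADE4 downtag of BC had 8.37, 9.22, 7.65, 9.05, 7.14 and 9.20 in the quinolone, against 8.21, 8.35 and 9.09 (lowest, median, highest) in YPD with DMSO. The groups overlapped and the FD score was -0.36 ± 0.88 (SD, n = 6; limma adjusted p = 0.982), while the difference of means in the fit was 0.04. Without the arrays that held other tags the score was -0.01. The tags of ADE1, ADE2, ADE3, ADE5,7 and ADE6 were not above background by the mean of the BC controls, and the starting pool of BC had levels of 4.64 to 6.16 for them. Control array 7, which held PB tags, passed the threshold for ADE2 (9.94), ADE5,7 (8.53), ADE1 (7.94) and ADE6 (7.49). A response of those strains in BC could not be measured on these arrays.

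Adenine dropout arrays of the same collections, with SC as their control, gave a second readout of purine need. They were normalised apart from the YPD arrays, and their scores are medians of SC minus dropout intensity over 3 arrays. Among the purine synthesis tags above background by the mean of the controls, 11 tags of 8 genes in YKO had a median FD score of 2.55 in the quinolone and 2.26 in the dropout. In PB the medians over 8 tags of 6 genes were 1.20 and 1.42, and in BC those over 6 tags of 5 genes were 0.31 and -0.10. Of these tags, 5 in YKO, 3 in PB and 0 in BC lay below every control array in the quinolone. Over all strains tested under the main rule, with 1 tag each present in every control, this held for 14 of 3929, 17 of 4015 and 6 of 3837. The purine tags were taken by the mean of the controls, with up to 2 per gene, so the shares are not like for like. BC had 6 quinolone arrays against 3 in YKO and in PB, which makes such a gap harder to reach. ADE4 illustrated the contrast, with 3.35 in the quinolone and 3.39 in the dropout for YKO, and -0.36 and -0.08 for BC. The strain labelled ADE4 in BC thus scored near 0 in medium without adenine too. In YKO the ADE4 downtag had median levels of 6.08 in the quinolone and 6.30 in the dropout, below the threshold of 7.16 set on YPD arrays. The ADE1 uptag and the ADE3 and ADE5,7 downtags stood at 5.02, 5.61 and 4.84 in the quinolone. In the dropout they stood at 4.99, 5.59 and 4.83. At such levels a score is limited by the control level, so like scores do not show effects of like size.

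**Figure D3:**
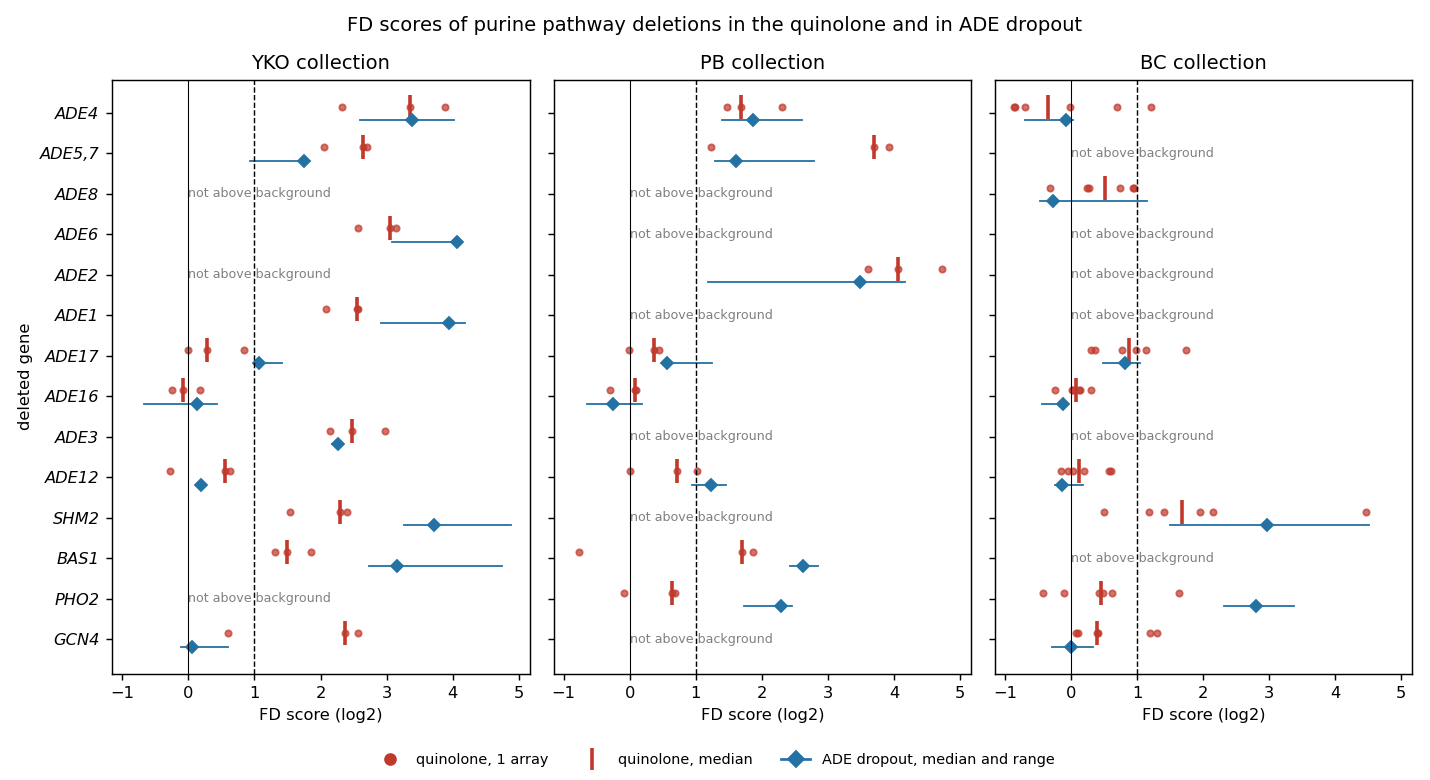
FD scores (log2, x axis) of deletions of purine pathway genes (y axis) in the quinolone (red points, single arrays; red bar, median) and in adenine dropout medium (blue diamond, median; blue line, range), for the brighter tag of each strain. ADE4 lies at 3.35 in the quinolone in YKO and at -0.36 in BC, and 5 genes of purine synthesis have no tag above background in BC.

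Under the main rule the regulator BAS1 was tested in YKO alone, PHO2 in PB and BC, and GCN4 in BC alone. No test compared the regulators with each other. The deletion of BAS1, the Myb-type activator of the ADE genes, had 6.79, 7.15 and 7.34 in the quinolone in YKO, against 7.92, 8.64 and 9.25 in YPD with DMSO. The groups did not overlap, and its FD score was 1.49 ± 0.28 (SD, n = 3; limma adjusted p = 0.000100). In PB it had 5.75, 8.22 and 5.58 in the quinolone, against 6.86, 7.45 and 8.29 in YPD with DMSO. The value of 8.22 was again on the PB quinolone array that held YKO tags, and the score was 1.70 with all arrays (adjusted p = 0.689) and 1.78 without the 3 PB arrays that held such tags (0.235), with no call either way. In BC the BAS1 uptag was not above background by the mean of the controls. It had 5.51, 7.47, 7.42, 7.27, 5.45 and 5.48 in the quinolone, against 5.20, 6.85 and 7.64 in YPD with DMSO, and its 3 high values were on the arrays that held YKO tags.

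PHO2, the homeodomain partner of Bas1, gave scores under 1 in the quinolone. Its uptag scored 0.64 in PB and 0.45 in BC in the quinolone, with overlapping groups and no call (limma adjusted p = 0.699 and 0.593). The same tag scored 2.29 and 2.80 in the adenine dropout of PB and BC. In YKO the PHO2 tags were not above background by the mean of all controls. With both changes to the setting the YKO uptag was tested and scored 0.11 ± 0.86 (SD, n = 3; limma adjusted p = 0.997), without a call.

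GCN4 encodes the activator of amino acid synthesis genes under starvation. In YKO its uptag had 9.58, 7.80 and 7.60 in the quinolone, against 7.99, 10.17 and 10.73 in YPD with DMSO. Quinolone arrays 2 and 3 lay below every control, array 1 lay above control arrays 1, 5 and 6 (9.13, 8.20 and 7.99), and the score of 2.38 was not called (limma adjusted p = 1.000, presence by the mean). The adenine dropout score of this tag was 0.05. In BC the GCN4 uptag was tested under the main rule and scored 0.39 ± 0.54 (SD, n = 6; limma adjusted p = 0.561), without a call. In PB neither GCN4 tag was above background by the mean of the controls.

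SHM2 encodes the cytosolic serine hydroxymethyltransferase, which charges tetrahydrofolate with the one-carbon unit of serine. In YKO its uptag had 8.61, 9.49 and 8.73 in the quinolone, against 10.22, 11.02 and 11.20 in YPD with DMSO. The groups did not overlap, and the FD score was 2.29 ± 0.47 (SD, n = 3; limma adjusted p = 0.00657). The call was lost when quinolone array 1 or 3 was left out (scores of 1.91 and 1.97, adjusted p = 0.132 and 0.148).

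In BC the SHM2 downtag had 8.26, 9.02, 5.75, 9.72, 8.06 and 8.80 in the quinolone, against 9.77, 10.21 and 10.89 in YPD with DMSO. All 6 quinolone arrays were below all 7 controls, array 3 by far the most. The FD score was 1.68 ± 1.37 (SD, n = 6; limma adjusted p = 0.000761), and 1.99 ± 0.38 over the 3 arrays left without those that held other tags (adjusted p = 8.43e-07). In a fit of quinolone and YPD with DMSO arrays alone it lost the call (adjusted p = 0.102). The other tag of the BC strain overlapped, at 7.81, 10.16, 9.97, 10.17, 8.43 and 9.00 in the quinolone, against 9.19, 10.17 and 10.31 in YPD with DMSO. Its 3 high values were on quinolone arrays 2, 3 and 4, which held tags of YKO.

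The SHM2 tags also scored high in adenine dropout, at 3.72 (YKO uptag) and 2.96 (BC downtag), as a description. In PB neither SHM2 tag was above background by the mean of the controls, with starting pool levels of 6.32 and 5.74. The uptag stood at 10.41 on quinolone array 2, the PB quinolone array that held YKO tags, against 4.87, 6.16 and 7.65 in YPD with DMSO. The downtag passed the threshold on control arrays 3 and 5, at 9.59 and 8.11. Of the one-carbon and folate genes, 10 strains were tested in YKO, 9 in PB and 8 in BC, and SHM2 was the only one called, in YKO and BC, against 0.153%, 0.0249% and 0.0521% of all strains. Their median FD scores were 0.03, -0.07 and 0.05. MTD1, a cytosolic methylenetetrahydrofolate dehydrogenase, scored 0.48, 0.60 and 0.28 in YKO, PB and BC, and SHM1, the mitochondrial isozyme of SHM2, scored -0.25, -0.04 and -0.22.

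THI3 was the only deletion called in all 3 collections. Its product binds thiamine pyrophosphate and acts with Thi2 and Pdc2 in the switching on of the thiamine synthesis genes. In YKO its downtag had 7.61, 7.53 and 7.07 in the quinolone, against 9.36, 9.93 and 10.10 in YPD with DMSO. In PB it had 8.10, 7.45 and 7.77 in the quinolone, against 9.18, 9.65 and 10.39 in YPD with DMSO. In neither did the groups overlap, and the FD scores were 2.40 ± 0.29 and 1.88 ± 0.33 (SD, n = 3 each; limma adjusted p = 2.20e-10 and 6.84e-08).

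In BC the THI3 downtag had 7.43, 4.99, 7.15, 9.33, 6.50 and 7.03 in the quinolone, against 9.31, 10.05 and 10.43 in YPD with DMSO. Quinolone array 4 alone reached the controls, and it held 53.8% of the PB tags and 22.4% of the YKO tags. The FD score was 2.95 ± 1.41 (SD, n = 6; limma adjusted p = 1.86e-05) and, without the arrays that held other tags, 3.06 ± 0.46 (n = 3; adjusted p = 5.06e-08). The second tag scored 3.45 in YKO, 1.71 in PB and 2.54 in BC. In PB this tag was not present in every control, and its groups overlapped. It ran between 6.28 and 7.76 in the quinolone, against 6.47 to 9.61 in YPD with DMSO, where control array 1 was the lowest.

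The THI3 strain separated the quinolone from adenine dropout. Its dropout scores were -0.28 in YKO, -0.03 in PB and -0.29 in BC, where the quinolone scores of the same tag were 2.40, 1.88 and 2.95. Among 18, 17 and 17 tested strains of thiamine synthesis and regulation, THI3 was the only call in YKO, PB and BC, against 0.153%, 0.0249% and 0.0521% of all strains, and the medians were 0.10, 0.04 and 0.02. Enzymes and the uptake carrier of the pathway lay near 0, with THI4 at 0.04, -0.19 and -0.06, THI6 at 0.07, 0.06 and 0.02, and THI7 at 0.11, 0.04 and 0.33. THI2, a regulator that works with Thi3, was tested in YKO alone and scored 0.84 ± 0.90 (SD, n = 3; limma adjusted p = 1.000). THI2, THI4, THI6 and THI7 were singled out with their values in view.

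**Figure D4:**
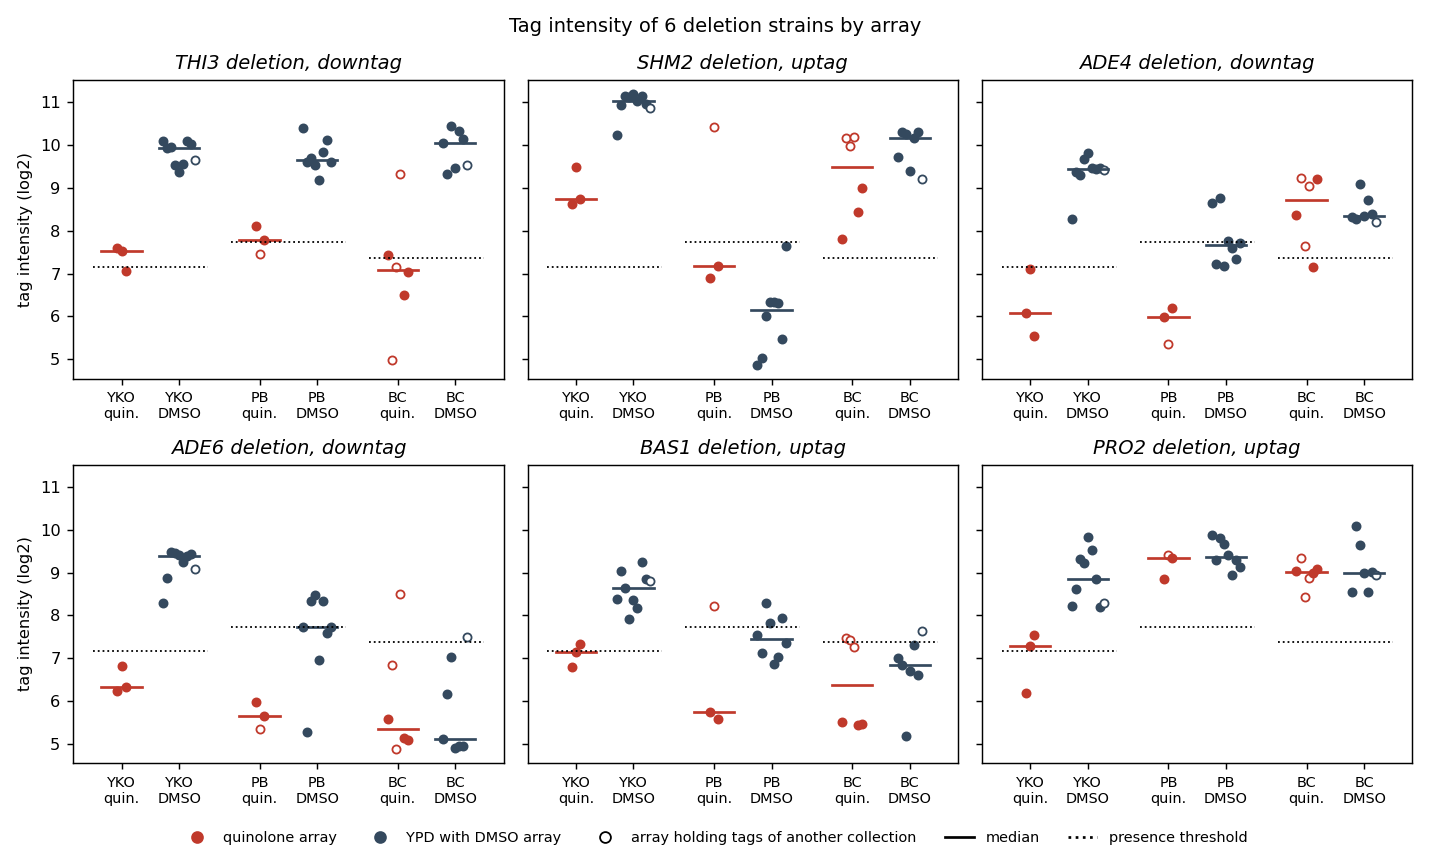
Log2 tag intensity (y axis) of 6 deletion strains on every quinolone array (red, labelled quin.) and YPD with DMSO array (blue, labelled DMSO) of YKO, PB and BC, with group medians as bars and presence thresholds dotted. Open points are arrays that held tags of another collection. THI3 is lower in the quinolone in every collection (medians of 7.53, 7.77 and 7.09 in the quinolone, against 9.93, 9.65 and 10.05 in YPD with DMSO), whereas the ADE4 groups are apart in YKO and PB and overlap in BC.

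PRO2 encodes gamma-glutamyl phosphate reductase, the second enzyme of proline synthesis. In YKO its uptag had 6.19, 7.29 and 7.54 in the quinolone, against 8.19, 8.85 and 9.84 in YPD with DMSO, with no overlap and an FD score of 1.56 ± 0.72 (SD, n = 3; limma adjusted p = 0.000105). The downtag scored 1.72, and here control array 1 stood far below the other controls at 5.35. PRO2 did not separate in PB (8.84, 9.41 and 9.34 in the quinolone, against 8.94, 9.35 and 9.88 in YPD with DMSO) or in BC, and the scores were 0.01 and 0.03.

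The first enzyme of proline synthesis, gamma-glutamyl kinase, is encoded by PRO1. Its YKO downtag had 6.42, 6.62 and 4.79 in the quinolone, against 6.49, 7.56 and 8.15 in YPD with DMSO. It was called with both changes to the setting (1.22 ± 1.00, SD, n = 3; limma adjusted p = 0.0421) and not with presence by the mean alone (adjusted p = 0.673). PRO1 was singled out with its values in view. Of 8 tested strains of proline and glutamate synthesis in each collection, PRO2 in YKO was the one called, against 0.153%, 0.0249% and 0.0521% of all strains, and the medians were 0.01, -0.05 and 0.02.

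Leaving out the arrays that held other tags added strains. In YKO 8 of 4252 were then called as lower (0.188%), the 6 above with ADE3 and SOD2. In PB 1 of 4015 was called (0.0249%), THI3 with a score of 1.72. In BC 3 of 3875 were called (0.0774%), THI3, SHM2 and ERG3.

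ERG3 encodes the C-5 sterol desaturase of ergosterol synthesis. In BC its uptag had 6.62, 8.11, 7.32, 9.64, 7.03 and 5.32 in the quinolone, against 8.14, 9.37 and 9.75 in YPD with DMSO. The high value of 9.64 was on array 4. The score was 2.20 ± 1.45 with all arrays (SD, n = 6; limma adjusted p = 0.190, presence by the mean) and 2.77 ± 0.89 over arrays 1, 5 and 6 (n = 3; adjusted p = 6.76e-05). In YKO the ERG3 uptag scored -0.24 with overlapping groups, and in PB it was not above background by the mean of the controls.

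SOD2, the mitochondrial manganese superoxide dismutase, and ERG6, the sterol C-24 methyltransferase, were near the threshold in YKO controls and were singled out with their values in view. The SOD2 uptag had 6.14, 5.94 and 5.73 in the quinolone, against 6.92, 7.27 and 7.69 in YPD with DMSO, and scored 1.23 without the arrays that held other tags (limma adjusted p = 2.21e-05). The ERG6 uptag had 6.03, 5.59 and 5.79 in the quinolone, against 6.59, 7.19 and 7.41 in YPD with DMSO, and scored 1.43 with both changes to the setting (adjusted p = 4.92e-05). Of 7 late ergosterol genes, 2 strains were tested in YKO, 3 in PB and 2 in BC under the main rule, with 0 called in each, against 0.153%, 0.0249% and 0.0521% of all strains. With those arrays left out ERG3 in BC was called (0.0774% of all BC strains), and with presence by the mean as well ERG6 in YKO (0.268% of all YKO strains).

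No strain was called as higher in the quinolone with all arrays, and the strain with the most negative score was GLY1 in YKO and in BC. GLY1 encodes threonine aldolase, a main source of glycine. In YKO its downtag had 9.81, 10.33 and 10.40 in the quinolone, against 8.15, 8.95 and 9.33 in YPD with DMSO, with no overlap. In BC it had 9.77, 9.27, 9.23, 8.41, 9.76 and 9.80 in the quinolone, against 7.80, 8.22 and 9.04 in YPD with DMSO, where array 4 lay within the range of the controls. The scores were -1.39 ± 0.32 in YKO (SD, n = 3) and -1.30 ± 0.54 in BC (n = 6), not called with all arrays (limma adjusted p = 0.142 and 0.241).

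GLY1 was called as higher once the arrays that held other tags were left out, at -1.39 in YKO (limma adjusted p = 0.00826) and -1.42 in BC (0.000576). In adenine dropout medium it scored -1.09 in YKO and -2.57 in BC, as a description. In PB no GLY1 tag was above background. With those arrays left out 3 of 4252 strains were called as higher in YKO (0.0706%), 0 in PB (0.0%) and 1 of 3875 in BC (0.0258%).

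The other 2 in YKO were COG8, a subunit of the Golgi tethering complex COG (-1.19; limma adjusted p = 0.0467), and FEN2, the plasma membrane pantothenate carrier (-1.18; 0.0239). The COG8 downtag had 8.68, 8.46 and 8.73 in the quinolone, against 7.04, 7.48 and 8.44 in YPD with DMSO. The FEN2 downtag had 8.69, 9.22 and 9.35 in the quinolone, against 7.08, 8.01 and 8.53 in YPD with DMSO. In both the groups did not overlap, but for each the medium without DMSO gave a higher level than YPD with DMSO (medians of 9.15 and 8.90), above the quinolone median of 8.68 for COG8 and below that of 9.22 for FEN2. The medians without DMSO are over all 8 YKO arrays in YPD, of which 4 held PB tags and were left out of the calls.

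With presence by the mean as well, BUD16, a putative pyridoxal kinase (-1.51; limma adjusted p = 0.00661), and ROM2, an exchange factor for Rho1 (-1.43; 0.0306), were called as higher in YKO beside GLY1 and FEN2, 4 of 4483 strains (0.0892%), and GLY1 alone in BC, 1 of 4157 (0.0241%). COG8 was then read from its uptag and scored -0.74 without a call (adjusted p = 0.713). The BUD16 downtag had 8.38, 8.91 and 9.14 in the quinolone, against 6.23, 7.46 and 9.13 in YPD with DMSO, where the highest control was array 9, which held PB tags. The highest of the other controls was 8.13, below every quinolone value. The ROM2 downtag had 9.59, 9.65 and 9.52 in the quinolone, against 6.35, 8.02 and 9.08 in YPD with DMSO. In YPD without DMSO its median was 9.77, above the quinolone values, with the YPD arrays that held PB tags included. COG8, FEN2, BUD16 and ROM2 were singled out with their values in view. With both changes to the setting no strain of these genes was called in PB or BC. BUD16 then scored 0.19 in PB, FEN2 -0.14 in BC, and COG8 -0.30 in PB and -0.46 in BC. A ROM2 strain other than that of YKO scored -0.46 in PB and -0.43 in BC.

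PPG1, a protein phosphatase of the PP2A family, and RPL13B, a protein of the large ribosomal subunit, were on the list of strains to be described. In BC the PPG1 downtag had 9.82, 9.17, 8.35, 9.45, 6.22 and 6.77 in the quinolone, against 8.96, 9.44 and 10.07 in YPD with DMSO. Arrays 5 and 6 were low and the other 4 were not, and the FD score was 0.68 ± 1.49 (SD, n = 6; limma adjusted p = 0.360). Without the arrays that held other tags it was 2.62 ± 1.94 (n = 3; adjusted p = 0.203). The score was 0.09 in YKO and 0.24 in PB.

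RPL13B too was low on arrays 5 and 6 of BC. Its downtag had 8.94, 9.07, 8.87, 9.28, 5.15 and 5.27 in the quinolone, against 7.57, 8.54 and 9.06 in YPD with DMSO, so those arrays lay far below every control while the other 4 lay among or above them. Its FD score was -0.37 over all 6 arrays and 3.22 over arrays 1, 5 and 6. The uptag, the one read for the test by the mean of the controls, scored 0.55 with all arrays and 1.03 with those that held other tags left out, without a call (limma adjusted p = 0.806 and 0.110). In YKO and PB the RPL13B scores were -0.14 and 0.25.

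Other lists gave no call with all arrays in any collection, against 0.153%, 0.0249% and 0.0521% of all strains. In purine salvage, transport and interconversion 15, 14 and 15 strains were tested in YKO, PB and BC, and the scores ran between -0.43 and 0.46 with medians of 0.02, 0.09 and 0.00. Phosphoribosyl pyrophosphate synthetase subunits, whose product starts the purine chain, ran between -0.46 and 0.26 (2, 2 and 3 strains). Histidine synthesis, which shares the AICAR intermediate with the purine chain, ran between -0.23 and 0.41 (7, 6 and 2 strains).

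In the lists of drug handling and DNA damage, 31, 28 and 31 strains of multidrug transporters and their regulators had medians of -0.02, -0.08 and 0.04, between -0.71 and 0.61. DNA repair strains (22, 23 and 24) had medians of -0.01, -0.08 and 0.05. The highest of them was RAD24, a checkpoint clamp loader subunit, at 1.02 ± 0.63 in YKO (SD, n = 3; limma adjusted p = 1.000), against -0.36 in PB and -0.11 in BC. Plasmid and chromosome maintenance strains (16, 14 and 15), the vacuolar proton ATPase (1, 1 and 4), the FAR complex with PPG1 (7, 7 and 5) and the mitochondrial ribosome (30, 39 and 11) had 0 calls in each collection too.

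Differences between collections were tested directly on the strains tested in both of a pair. They are model differences between means of arrays, not between median FD scores, and the tag tested could differ between collections. In YKO minus BC, 2 of 3394 strains differed (0.0589%). ADE4 differed by 3.07 ± 0.40 (SE; limma adjusted p = 3.87e-07), where the BC strain of that label also scored near 0 in adenine dropout (-0.08) and its identity was not tested. PRO2, read from the uptag in YKO and the downtag in BC, differed by 1.95 ± 0.38 (SE; adjusted p = 0.00390). These differences were 2.82 and 2.30 without the arrays that held other tags (adjusted p = 8.06e-05 and 0.00230). In YKO minus PB 0 of 3523 differed (0.0%), with PRO2 at 1.66 ± 0.37 (SE; adjusted p = 0.117), and in PB minus BC 0 of 3553 differed (0.0%).

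No difference among the 3 scores of THI3 passed the adjusted test. The model differences were 0.43 ± 0.27 for YKO minus PB, -0.42 ± 0.47 for YKO minus BC and -0.85 ± 0.48 for PB minus BC (SE; limma adjusted p = 0.999, 0.999 and 0.933). With the arrays that held other tags left out they were 0.61 ± 0.29, -0.54 ± 0.31 and -1.15 ± 0.34 (SE; adjusted p = 0.993, 0.785 and 0.333), and the unadjusted limma p of PB minus BC was 0.00152. SHM2, read from the uptag in YKO and the downtag in BC, differed by 0.07 ± 0.51 between these collections (SE; adjusted p = 0.999). ADE6, BAS1 and ADE3, called in YKO in 1 reading or more, were not tested in another collection under the main rule, so a difference for them was not tested.

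CCCP (32 µM) and FCCP (6 µM), both proton ionophores that uncouple oxidative phosphorylation, were given to the same pools in the same vehicle, with 3 arrays each per collection. Against these arrays 9 of 3929 YKO strains (0.229%), 7 of 4015 PB strains (0.174%) and 9 of 3837 BC strains (0.235%) were lower in the quinolone by at least 1 in the fit, past the same adjusted p. Without the arrays that held other tags the shares were 0.306%, 0.174% and 0.31%. All 6 called YKO strains were among the 9, and THI3 and SHM2 were among those of BC. The quinolone arrays are shared with the comparison to YPD with DMSO, so this is no independent repeat of it.

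For THI3 the model difference to the ionophores was 2.68 in YKO, 2.20 in PB and 2.99 in BC. The medians of its downtag were 10.19 and 9.91 in CCCP and FCCP for YKO and 10.11 and 10.15 for BC, and 9.96 in FCCP for PB. The ADE4 downtag of YKO stood at 10.10 and 10.17 and the ADE6 downtag at 10.24 and 10.18. BAS1 in YKO stood at 10.80 in CCCP and 10.30 in FCCP, above its median of 8.64 in YPD with DMSO, and its model difference to the ionophores was 3.43. None of these ionophore medians was below the range of the YPD with DMSO arrays.

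The other strains lower than in the ionophores were not lower than in YPD with DMSO by the call rule. In PB they included ADE12 (1.17; limma adjusted p = 0.000157), the splicing factors MSL1 (1.26) and BUD31 (1.22), and SFP1, an activator of ribosome synthesis genes (1.17). In YKO they were NPT1, which acts in NAD salvage (1.56), RPL20B (1.14) and BUD21 (1.02). In BC the highest after THI3 and SHM2 was NKP2, a kinetochore protein (1.60), whose FD score against YPD with DMSO was 0.84.

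In the other direction 2.52% of YKO, 3.96% of PB and 0.625% of BC strains were higher in the quinolone than in the ionophores, and 3.79%, 3.86% and 0.49% without the arrays that held other tags. These held 18 of the 30 tested mitochondrial ribosome strains in YKO, 29 of 39 in PB and 0 of 11 in BC. Against YPD with DMSO, 0 of these strains were called as higher in the quinolone, and their median FD scores were 0.08 in YKO, -0.11 in PB and -0.10 in BC. The mitochondrial ribosome strains as a whole had median FD scores of 0.09, -0.09 and 0.12 in the quinolone, so their levels there were close to those in vehicle.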

How the data were processed

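The deposited values are log2 intensities, 1 for each tag on each TAG4 array. The authors averaged replicate features, masked artefacts and normalised uptags and downtags to the median within each set. Values ran between 3.61 and 14.67 and were used as deposited. The methods name a batch correction, and whether the deposited values hold it is not given in the sources used here. The table covers 10198 tags of 5179 strains (5019 with 2 tags, 160 with 1) in 4993 genes. Names of 4630 genes matched RefSeq.

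Groups came from the labels, and 2 BC arrays whose labels contradict each other were not used. Presence came from a 2-component Gaussian mixture on the YPD and YPD with DMSO arrays (posterior over 0.5), and of the present tags of a strain that with the lowest coefficient of variation was tested. Each collection was fitted with limma (lmFit, eBayes), with 1 mean per condition over all its arrays in YPD or YPG. The methods ask for every tag of a strain to be present, which was an alternative here, with other presence rules, controls, normalisations, tests and left-out arrays. The fit was tested on simulated data. The number of arrays limits the precision.

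Named strains were the called ones (up to 10 lower and 5 higher per collection), the purine synthesis and regulator lists, SHM2, THI3, PRO2, ERG3, RPL13B and PPG1, and called members of other lists. Members and lists were chosen with earlier results of these data known. Replicate numbers did not pair arrays in general: deviations of same-numbered quinolone and control arrays correlated at -0.28 to 0.27. The same-numbered control was the closest for BC quinolone arrays 1 (0.27) and 3 (0.20). The highest correlation was 0.54, for quinolone array 1 and control array 4 of YKO. The main fit treated arrays as independent and held no term for arrays that vary together. Control array 1 of YKO and of PB stood apart, with median correlations to the other controls of 0.70 and 0.72, and no 2 arrays were duplicates. Python 3.11.15, numpy 2.4.6, pandas 2.3.3, scipy 1.17.1, R 4.3.3 and limma 3.58.1 were used.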

Additional observations from a re-analysis of the deposited data

Results flagged for a closer look

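In 16 groups of 4 to 10 arrays tested for a sample far from the others, 2 had one, where chance gives about 1 in 20. Both were control array 1 of YKO in YPD with DMSO, which also correlated least with the other controls. It gave a log2 intensity of 10.22 for the SHM2 uptag (median of the others 11.06) and of 8.28 for the ADE4 downtag (median of the others 9.44).

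The response of 2 strains differed between collections by a test of the difference itself, YKO minus BC. The model difference was 3.07 for ADE4 (limma adjusted p = 3.87e-07) and 1.95 for PRO2 (adjusted p = 0.00390). It was taken between means of arrays, not between median FD scores, and for PRO2 between the YKO uptag and the BC downtag. The BC strain labelled ADE4 also scored near 0 in adenine dropout (-0.08), and its identity was not tested.

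Tags that belong to YKO alone were above background on quinolone arrays of other collections. Their share was 17.5% on quinolone array 2 of PB, where the highest PB array in YPD with DMSO had 7.91%. It was 18.4%, 10.2% and 22.4% on quinolone arrays 2, 3 and 4 of BC, where the highest BC array in YPD with DMSO had 2.70%.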

How the results depend on the processing

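THI3 in all 3 collections, and ADE4, ADE6 and PRO2 in YKO, were called under every alternative that tested them. BAS1 in YKO lost its call only with an FD score of at least 1.5 required (1.49). The number of strains called as lower in YKO was 2 with every tag present and 12 with presence by the mean and the arrays holding other tags left out. In PB it was 0 with every tag present, 2 with presence by the mean, 2 with the mean of the present tags and 4 with YPD as control. In BC it was 1 with quinolone and YPD with DMSO arrays alone. Strains called as higher in YKO numbered 2 with YPD as control, 1 with YPD and YPD with DMSO together, 1 with quinolone and YPD with DMSO arrays alone, 3 without the arrays holding other tags and 4 with presence by the mean as well. They numbered 1 in PB with YPD as control, and 1 in BC without the arrays holding other tags, with either presence rule. Against CCCP and FCCP, strains lower in the quinolone numbered 3 in YKO and 1 in PB with every tag present, and 4 in BC with FCCP alone and 4 with the replicate block. Strains higher made up 1.69% in YKO, 2.79% in PB and 0.439% in BC with every tag present, and 3.79% in YKO without the arrays holding other tags. The difference of YKO and BC held for 0 strains with every tag present and 1 with quinolone and YPD with DMSO arrays alone. With every tag present fewer strains were tested (2312 in YKO, 2080 in PB, 2278 in BC). The cause of the other shifts was not tested.

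Leaving out 1 array at a time gave 5 to 7 calls in YKO, 1 to 1 in PB and 2 to 2 in BC, with 0 to 1 (1 without YKO control array 5), 0 to 0 and 0 to 0 higher. Against the ionophores it gave 6 to 16 lower in YKO (16 without quinolone array 1), 7 to 14 in PB (14 without quinolone array 1 and 13 without array 3) and 5 to 13 in BC (5 without quinolone array 5), and 2.19 to 2.44%, 3.64 to 3.94% and 0.521 to 0.625% higher. Differing strains numbered 0 to 1 (YKO and PB, 1 without YKO quinolone array 3, control array 1 or control array 8), 2 to 3 (YKO and BC) and 0 to 0 (PB and BC). The replicate block left the calls against YPD with DMSO at 6, 1 and 2. Array intensity over background limits what can be seen of dim strains.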

Other observations

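Strains outside the lists reached an FD score past 1 without a call, and were singled out with their values in view. In PB the GCN3 deletion, which lacks a subunit of the translation factor eIF2B, scored 1.43 ± 1.00 (SD, n = 3; limma adjusted p = 0.731), with 0.44 in BC. In YKO the deletion of COG6, a partner of COG8 in the Golgi tethering complex, scored -1.16 ± 0.42 (SD, n = 3; adjusted p = 0.161), with -0.36 in PB. In BC the NEM1 deletion, which lacks a phosphatase of lipid synthesis control, scored -1.19 ± 0.86 (SD, n = 6; adjusted p = 0.770), with -0.01 in YKO and -0.06 in PB.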
